A study of Cavia porcellus with 35 samples.

Results

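AMPA and kainate receptors are the ionotropic glutamate receptors that carry fast excitatory transmission in the cortex. The AMPA receptor subunits GRIA1 to GRIA4 and the kainate receptor subunits GRIK1 to GRIK5 were examined here. These 9 genes were chosen by family membership, with earlier results of these data already known. All 9 were listed and tested in each of 4 tables of read counts, which listed between 11362 and 11720 genes. AMPA receptors are assembled from GRIA subunits in varying combinations, and the edited GRIA2 subunit makes the channel nearly impermeable to calcium. GRIK1, GRIK2 and GRIK3 can form kainate channels by themselves, whereas GRIK4 and GRIK5 join them and raise the affinity for glutamate. Auxiliary proteins such as the TARPs (the CACNG family) for AMPA receptors and NETO1 and NETO2 for kainate receptors set their gating and delivery to the synapse.

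The study asked whether treatment of pregnant guinea pigs with a synthetic glucocorticoid changed the prefrontal cortex of their descendants. RNA was sequenced from 35 juvenile guinea pigs (Cavia porcellus) at postnatal day 40, 17 controls and 18 animals of the betamethasone line (labelled Beta, here sGC). There were 4 control and 4 sGC females in each of the generations F1, F2 and F3, and 5 control and 6 sGC males in F1. F1 animals were exposed in the womb in late gestation to repeated courses of betamethasone, or to saline in controls. F2 and F3 females descended from F1 and F2 males mated with females from outside the experiment, so neither they nor their dams were treated. The tissue was punched from the medial prefrontal cortex (mPFC), and 1 animal of a sex per litter was used in the female groups. No strain was named in the sources used here. Levels are given as read counts scaled to the library size (CPM) after TMM normalization. Differences are log2 fold changes (sGC minus control) with their standard error (SE) from edgeR's quasi-likelihood test, and the false discovery rate (FDR) is its Benjamini-Hochberg adjusted p over all genes of that table, called at 0.05.

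Library totals ranged from 12819964 to 31763585 reads, and the F1 males were sequenced deepest. The rarest subunit, GRIK1, had between 119 and 648 reads in an animal, and GRIA2 had at least 4755. Source labels gave prefrontal cortex but the extraction text of the same samples named the paraventricular nucleus of the hypothalamus. The 3 or 4 of 6 paraventricular markers analysed here summed to 6.58 to 19.3 CPM in every animal, and 5 of 6 cortical glutamatergic markers summed to 211 to 4480 CPM. Among the F1 females, controls 2, 3 and 4 stood apart with glutamatergic marker sums of 397, 211 and 295 CPM, whereas control 1 had 1230 CPM. From sGC 1 to sGC 4 the sums were 1620, 1490, 1090 and 4480 CPM, so sGC 4 also stood apart. In the same table the sums of 8 of 9 striatal spiny neuron markers were 594 to 2710 CPM in controls, highest in controls 1 and 4, and 249 to 628 CPM in the sGC group. Of the markers tested there, 5 of 8 striatal, 3 of 4 microglial, 3 of 6 astrocyte, 2 of 7 interneuron and 1 of 5 upper-layer genes fell. None rose, where 16.5% of all genes were called and 9.21% were called higher. No glutamatergic, deep-layer, oligodendrocyte, oligodendrocyte precursor, paraventricular or endothelial marker passed. Microglial sums were 216 to 268 CPM in controls and 163 to 184 CPM in the sGC group, without overlap, and oligodendrocyte sums were 4510 to 15300 and 3520 to 7140 CPM. The part of these markers in the F1 female differences was not tested. In bulk tissue fewer cells of a type and less RNA per cell cannot be told apart. F1 female differences are given below with all animals, without controls 1 and 4, and without controls 2, 3 and 4.

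In F1 females GRIA3 rose and no other subunit passed the test. GRIA3 encodes an AMPA receptor subunit that pairs with GRIA2 in cortical neurons. Its level was 136, 126, 127 and 125 CPM in controls and 176, 163, 178 and 169 CPM in the sGC group. All 4 sGC animals lay above all 4 controls, where 23.2% of all genes in this table had groups that did not overlap. The means were 128 ± 5.11 and 171 ± 6.88 CPM (SD, n = 4 each), and the log2 fold change was 0.42 (SE 0.05, FDR 0.0039). Thus 1 of 9 subunits was called, where 16.5% of the 11268 genes tested were called in this comparison and 9.21% were called higher. GRIA3 passed in all 8 fits that left out 1 animal (FDR 0.00264 to 0.0222) and without controls 1 and 4 (log2 fold change 0.46, FDR 0.0136). Without controls 2, 3 and 4 a single control remained, which was assumed to vary like the other group; GRIA3 then differed by 0.33 (FDR 0.198) and 49 genes in all were called.

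The remaining AMPA subunits of F1 females overlapped between groups. GRIA1, the subunit most tied to activity-dependent insertion at synapses, was 217, 125, 157 and 178 CPM in controls and 156, 166, 176 and 153 CPM in the sGC group. The controls were the more scattered group, with control 1 highest and control 2 lowest. The log2 fold change of -0.06 (SE 0.15, FDR 0.812) turned to 0.23 (FDR 0.17) without controls 1 and 4. It was -0.41 without controls 2, 3 and 4, where a single control remained. GRIA2 differed by 0.07 (SE 0.09, FDR 0.571), and by 0.18 and -0.04 under the same omissions. GRIA4, an AMPA subunit with rapid gating, differed by -0.09 (SE 0.23, FDR 0.798), with sGC values from 37.1 to 84.3 CPM, and by 0.06 and -0.11 under these omissions. Of the kainate subunits, GRIK3 differed by 0.39 (SE 0.19, FDR 0.182) and GRIK4 by 0.34 (SE 0.15, FDR 0.154), while GRIK1, GRIK2 and GRIK5 differed by -0.26, -0.22 and 0.06. Without controls 1 and 4, GRIK1 to GRIK5 differed by -0.53, -0.07, 0.21, 0.24 and 0.17, and without controls 2, 3 and 4 by -0.07, -0.42, 0.6, 0.42 and -0.14. No kainate subunit passed under either omission. The median log2 fold change was 0.06 over the 9 subunits and -0.03 over all genes tested.

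**Figure D1:**
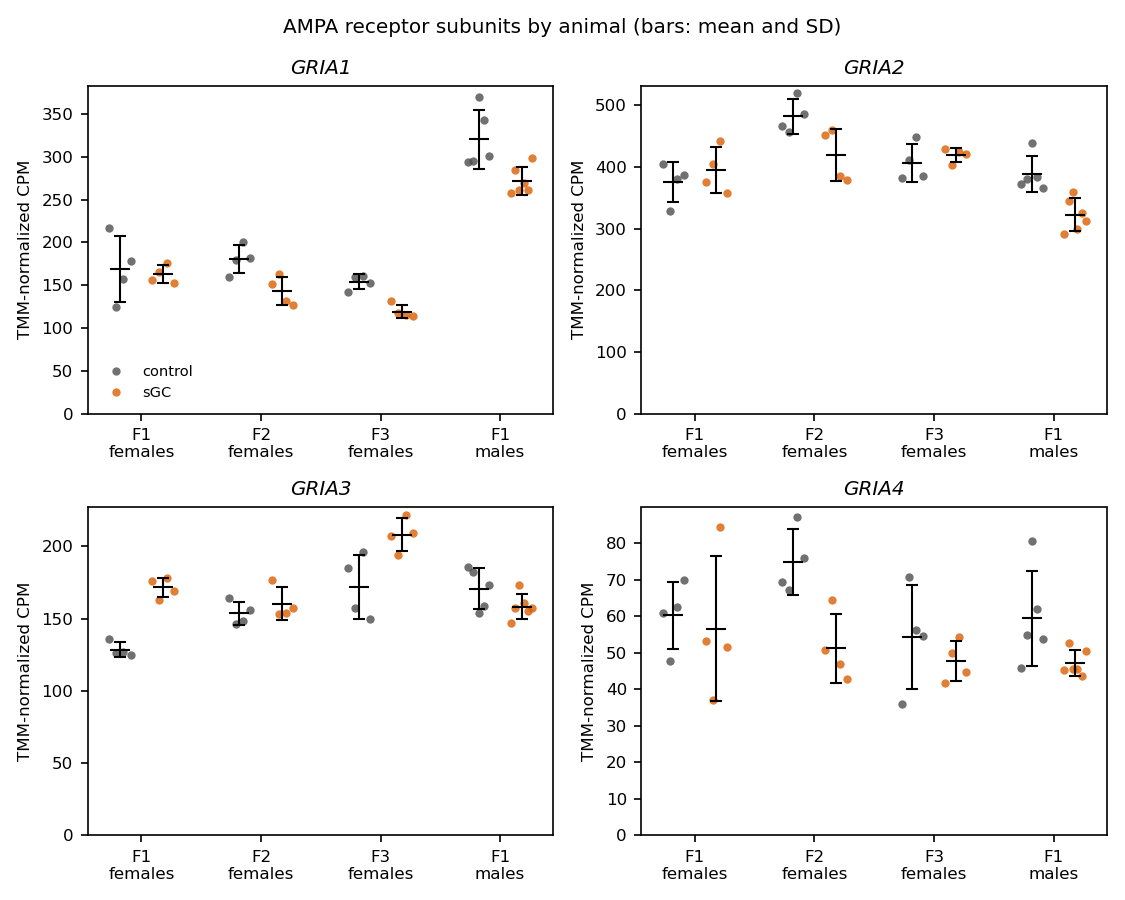
Levels of the 4 AMPA receptor subunits in each animal, as TMM-normalized CPM on linear axes from 0, by table and treatment (grey, control; orange, sGC). Bars show the mean and SD of each group. GRIA3 of F1 females lay at 125 to 136 CPM in controls and 163 to 178 CPM in the sGC group, and GRIA1 of F3 females at 142 to 161 and 114 to 131 CPM.

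In F2 females no subunit passed the FDR threshold, although 7 of 9 had an unadjusted p under 0.05. All genes gave 16.1% at that unadjusted level and 0.278% (31 of 11132) at the FDR threshold. With edgeR's likelihood ratio test, which the study used, and with DESeq2, 3 subunits passed: GRIA1, GRIA4 and GRIK3. The likelihood ratio test called 534 genes in all and DESeq2 473. GRIA4 was 69.3, 67.1, 87.2 and 75.8 CPM in controls and 50.6, 64.5, 46.8 and 42.8 CPM in the sGC group. All sGC animals lay below all controls, and sGC 2 was the closest to them. The log2 fold change of GRIA4 was -0.55 (SE 0.12, quasi-likelihood FDR 0.0648, likelihood ratio FDR 0.00233). The groups of 2 of 9 subunits, GRIA4 and GRIK4, did not overlap, where 8.09% of all genes had groups that did not.

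GRIK3, a kainate subunit with low sensitivity to glutamate, had the opposite sign in F2 females. It was 199, 170, 149 and 166 CPM in controls and 292, 197, 309 and 243 CPM in the sGC group. Of the sGC animals, 3 lay above every control, and sGC 2, at 197 CPM, lay just under control 1. The log2 fold change was 0.61 (SE 0.13, quasi-likelihood FDR 0.0594, likelihood ratio FDR 0.00128). GRIK4, a high-affinity partner subunit, differed by 0.29 (SE 0.1, FDR 0.18), with 31.1 to 35.5 CPM in controls and 36.1 to 47.7 CPM in the sGC group. GRIK5, the other high-affinity partner, differed by -0.06 (SE 0.05, FDR 0.646).

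The other subunits with an unadjusted p under 0.05 in F2 females had negative differences. GRIA1 was 160, 180, 200 and 182 CPM in controls and 151, 163, 132 and 127 CPM in the sGC group, and the log2 fold change was -0.34 (SE 0.09, FDR 0.11). GRIK1 differed by -0.52 (SE 0.17, FDR 0.162), GRIK2 by -0.24 (SE 0.1, FDR 0.254) and GRIA2 by -0.2 (SE 0.08, FDR 0.253). GRIA3 was the exception among the AMPA subunits, with 154 ± 8.37 and 160 ± 11 CPM (SD, n = 4 each) and a log2 fold change of 0.06 (FDR 0.686). The median log2 fold change over the 9 subunits was -0.2, and 0.01 over all genes. When sGC 2 was left out, 3 subunits passed the quasi-likelihood test, GRIA1 (-0.4, FDR 0.0311), GRIA4 (-0.68, FDR 0.00605) and GRIK3 (0.72, FDR 0.00605), and without control 1 GRIK3 passed alone. The shares of all genes called in these fits are not given here. Layer and glial markers moved with these differences: the 5 upper-layer markers summed to 537 to 710 CPM in controls and 360 to 511 CPM in the sGC group, and 5 of 7 oligodendrocyte markers to 3130 to 4860 and 4660 to 11000 CPM. The 5 deep-layer markers summed to 266 to 370 CPM in controls and, from sGC 1 to sGC 4, to 575, 307, 622 and 498 CPM, so that sGC 2 lay within the control range as it did for GRIK3. Their part in the subunit differences was not tested.

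**Figure D2:**
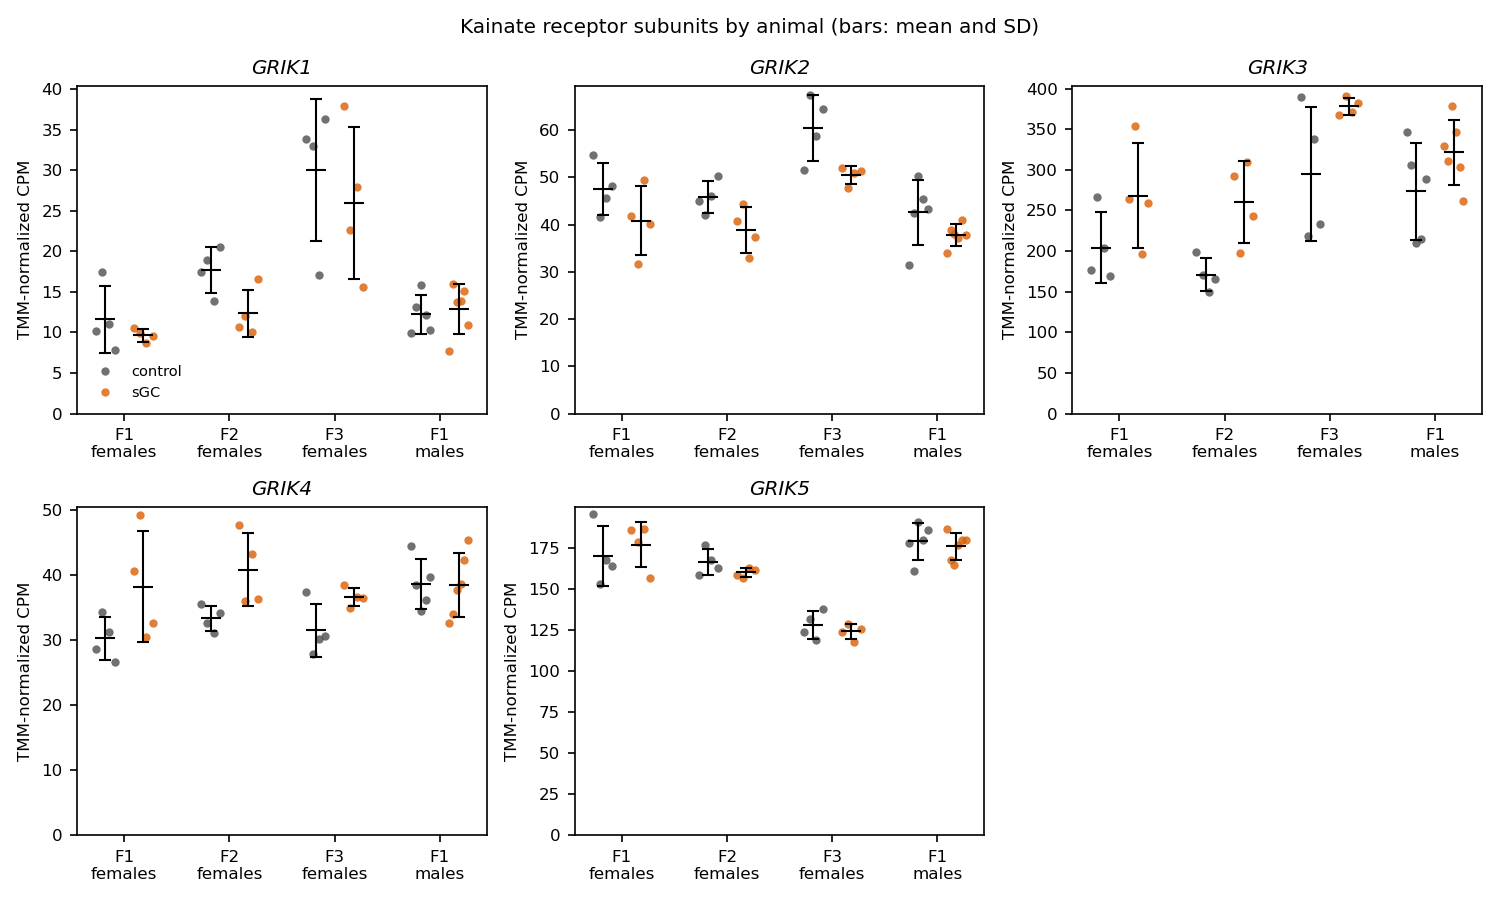
Levels of the 5 kainate receptor subunits in each animal, as TMM-normalized CPM on linear axes from 0, by table and treatment (grey, control; orange, sGC). Bars show the mean and SD of each group. GRIK3 means were higher in sGC than in control animals in all 4 tables, without passing the FDR threshold in any of them, and GRIK5 means differed by little.

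In F3 females GRIA1 fell and no other subunit passed the test. GRIA1 was 142, 160, 161 and 153 CPM in controls and 131, 117, 115 and 114 CPM in the sGC group. Every sGC animal lay below every control, where 10.3% of all genes had groups that did not overlap. The means were 154 ± 8.62 and 119 ± 7.88 CPM (SD, n = 4 each), and the log2 fold change was -0.37 (SE 0.06, FDR 0.0279). Thus 1 of 9 subunits was called, where 1.34% of 11420 genes were called and 0.271% were called lower. The call was narrow: GRIA1 passed in 2 of the 8 fits that left out 1 animal, those without control 1 or sGC 1, and its FDR reached 0.111 without control 2, while the log2 fold change stayed between -0.42 and -0.35. In a single fit of all 4 tables GRIA1 missed the threshold (-0.36, FDR 0.0587) and GRIA3 passed (0.28, FDR 0.0191).

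GRIA3 of F3 females was 185, 157, 196 and 150 CPM in controls and 207, 194, 222 and 209 CPM in the sGC group, and the log2 fold change was 0.27 (SE 0.09, FDR 0.155). Only control 3 reached the range of the sGC group. The ratio of GRIA3 to GRIA1 reads was therefore 0.982 to 1.3 in controls and 1.58 to 1.92 in sGC animals, with no overlap; this ratio was chosen after its values were seen and was not tested. GRIA2 reads made up 51.2 to 52.1% of AMPA subunit reads in controls and 52 to 53.3% in sGC animals. Kainate subunits GRIK2 (-0.26, SE 0.08, FDR 0.142), GRIK4 (0.21, SE 0.09, FDR 0.254) and GRIK3 (0.36, SE 0.17, FDR 0.305) did not pass, although GRIK2 and GRIK4 did when control 1 was left out. GRIK3 was 389, 218, 338 and 233 CPM in controls and 368, 391, 371 and 382 CPM in the sGC group, so the controls were scattered, with control 1 above 3 of the 4 sGC animals, and the sGC animals lay close together. Glutamatergic marker sums were 605 to 1020 CPM in F3 controls and 1170 to 1450 CPM in the sGC group, and oligodendrocyte sums (4 of 7 markers) were 2590 to 6880 and 4530 to 6570 CPM. Striatal sums (8 of 9 markers) were 334 to 1020 CPM in controls and 208 to 475 CPM in the sGC group, with a median log2 fold change of -0.8, and deep-layer sums were 268 to 468 and 426 to 502 CPM. Their part in the subunit differences was not tested.

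In F1 males GRIA1 and GRIA2 fell, and all 4 AMPA subunits had negative differences. GRIA2 was 372, 380, 439, 384 and 366 CPM in controls, and in the 6 sGC males its lowest, median and highest values were 291, 320 and 360 CPM. All sGC males lay below all controls, where 6.26% of all genes had groups that did not overlap. The means were 388 ± 29.2 (SD, n = 5) and 322 ± 26.9 CPM (SD, n = 6), and the log2 fold change was -0.27 (SE 0.06, FDR 0.0193). GRIA1 was 294, 295, 370, 343 and 301 CPM in controls, and 258, 265 and 299 CPM were its lowest, median and highest values in sGC males. The groups touched at their edges, since 1 sGC male lay above 2 controls. GRIA1 means were 321 ± 34.1 and 272 ± 16.6 CPM, and the log2 fold change was -0.24 (SE 0.07, FDR 0.0403).

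Thus 2 of 9 subunits were called in F1 males, where 9.22% of 11524 genes were called and 3.48% were called lower. GRIA4 (-0.34, SE 0.11, FDR 0.0811) and GRIA3 (-0.11, SE 0.06, FDR 0.237) did not pass, and GRIA4 did with the likelihood ratio test (FDR 0.0408) and DESeq2 (FDR 0.0369). The median log2 fold change was -0.25 over the 4 AMPA subunits, -0.01 over the 5 kainate subunits and 0 over all genes. Kainate values ran from -0.17 for GRIK2 to 0.23 for GRIK3, and GRIK1, GRIK4 and GRIK5 differed by 0.08, -0.01 and -0.02. GRIA2 passed in 10 of 11 fits that left out 1 animal and missed without sGC 4 (FDR 0.052). GRIA1 passed in 4 of 11, missing without control 3 or 4 or any of sGC 1 to 5, with an FDR of up to 0.102.

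Oligodendrocyte markers differed between the same groups of F1 males. All 5 tested rose, and their sum was 3370 to 6450 CPM in controls, lowest in controls 3 and 4, and 7230 to 12400 CPM in the sGC males. These controls also had the highest GRIA1 levels, 370 and 343 CPM, and the highest GRIA2 levels, 439 and 384 CPM. Without them GRIA1 differed by -0.12 (FDR 0.246) and GRIA2 by -0.21 (FDR 0.118), so no subunit was called and 264 genes in all were. Leaving out the highest controls lowers the control mean by itself, so this omission cannot show the part of the markers. Upper-layer markers summed to 389 to 749 CPM in controls and 378 to 440 CPM in the sGC males. The part of these markers in the subunit differences was not tested.

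**Figure D3:**
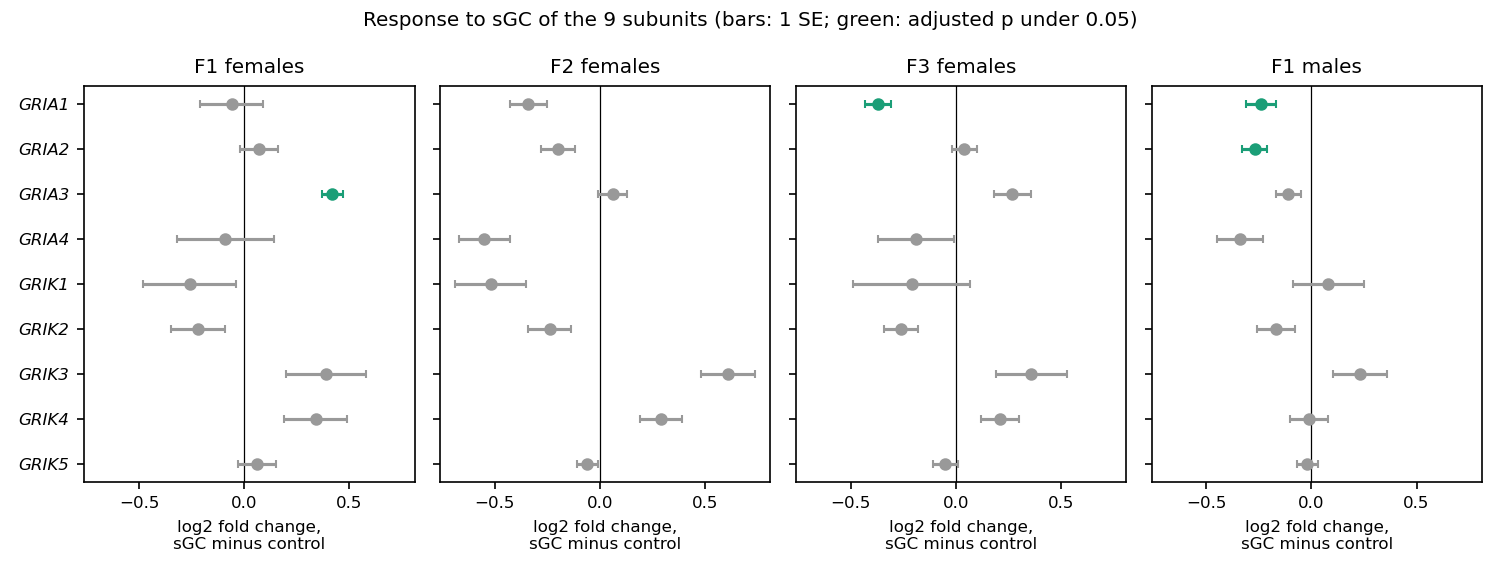
Log2 fold change (sGC minus control) of each subunit in the 4 tables, with bars of 1 SE on a shared axis. Green marks the values that passed the FDR threshold of 0.05: GRIA3 in F1 females at 0.42, GRIA1 in F3 females at -0.37, and GRIA1 and GRIA2 in F1 males at -0.24 and -0.27.

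Across the 4 tables, GRIK3 had a positive difference in each (0.39, 0.61, 0.36 and 0.23 in F1, F2 and F3 females and F1 males) and GRIK2 a negative one in each (-0.22, -0.24, -0.26 and -0.17). None of these 8 values passed the FDR threshold. GRIA4 was also negative in each table, from -0.55 to -0.09, but its F1 female value turned to 0.06 without controls 1 and 4 or without sGC 2. GRIK5 stayed within 0.06 of 0 in all tables. The tables share no animals, but F2 and F3 females descended from F1 and F2 males. GRIK3, GRIK2 and GRIA4 also varied with or against each other within groups, as described below. Their signs are therefore not independent, and whether a sign recurred across tables was not tested.

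Whether the response differed between tables was tested for 4 pairs with an interaction term. The response of GRIA3 was lower in F1 males than in F1 females by 0.53 on the log2 scale (difference -0.53, SE 0.08, FDR 0.000152), and that of GRIA2 was lower as well (-0.35, SE 0.11, FDR 0.0228). Thus 2 of 9 subunits differed in response between F1 females and F1 males, where 31.7% of 11274 genes did. These tables also differed in sequencing depth, and the F1 female groups differed in marker sums. Sex cannot be told apart from these. GRIA3 also responded less in F2 than in F1 females (-0.36, SE 0.08, FDR 0.0143), the single subunit called in a comparison where 13.8% of 11166 genes differed. The GRIA3 differences passed in every fit that left out 1 animal, 19 of 19 and 16 of 16, and the GRIA2 difference in 17 of 19, missing without F1 female control 2 or sGC 3 (highest FDR 0.0559). No subunit differed in response between F1 and F3 females (0.0981% of 11212 genes did) or between F2 and F3 females (0.018% of 11140). In the first of these pairs GRIA1 came closest (-0.33, SE 0.17, unadjusted p 0.0675 in the edgeR fit), and in the second GRIA2 (0.24, SE 0.1, FDR 0.398) was the single subunit with an unadjusted p under 0.05. The lower response of GRIA1 in F3 than in F1 females therefore did not pass a test of the difference.

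Levels also varied between tables. The 4 tables were listed separately and hold partly different genes, so these levels are described without a test. GRIA1 means were lowest in F3 sGC females (119 CPM) and highest in F1 control males (321 CPM), and each male lay above each female. GRIK1 means were highest in F3 females, 30.1 ± 8.76 CPM in controls and 26 ± 9.4 CPM in the sGC group (SD, n = 4 each), and lowest in F1 sGC females at 9.65 ± 0.777 CPM. The F3 groups overlapped with each other, and the 5 lowest group means of GRIK1, from 9.65 to 12.9 CPM, came from groups whose ranges overlapped. GRIK3 means ran from 171 CPM in F2 controls to 378 CPM in F3 sGC females, GRIA3 from 128 CPM in F1 female controls to 208 CPM in F3 sGC females, and GRIK2 from 37.8 CPM in F1 sGC males to 60.5 CPM in F3 controls. GRIK5 was lower in F3 females (118 to 138 CPM) than in the other tables (153 to 196 CPM). The highest group mean was 2.7 and 2.21 times the lowest for GRIA1 and GRIK3, higher still for GRIK1, and 1.35 to 1.62 times the lowest for the other 6 subunits. For GRIA4 and GRIK4 every group overlapped with its neighbours in this order, and for GRIA2 F2 controls (456 to 520 CPM) lay above F3 sGC females (404 to 430 CPM). Larger gaps between tables occurred in related genes: GRIN2B, an NMDA receptor subunit, had control means of 193 CPM in F1 males and 25.8 to 43.6 CPM in females, and SHISA7 had 14.7 CPM in F2 controls and 117 to 127 CPM in the other controls. Whether sex, generation or the counting of each table set these levels cannot be told apart.

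Within groups, some subunits moved together from animal to animal. After the mean of each of the 8 groups was subtracted from log2(CPM + 1), GRIA4 and GRIK3 were opposed over the 35 animals (Pearson r -0.81, Spearman rho -0.69), and so were GRIK2 and GRIK3 (r -0.79, rho -0.76). GRIA4 and GRIK2 varied in the same direction (r 0.78, rho 0.62), as did GRIA1 and GRIA2 (r 0.71, rho 0.71) and GRIK3 and GRIK4 (r 0.65, rho 0.62). Within single tables the GRIA4 and GRIK3 value lay between -0.94 and -0.69 and the GRIK2 and GRIK3 value between -0.94 and -0.61. Without the 2 animals farthest from the median of the first gene, the 5 coefficients were -0.77, -0.76, 0.73, 0.68 and 0.56. These are descriptions over animals whose genes share a library and a depth, taken from 36 pairs of subunits, with no test.

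**Figure D4:**
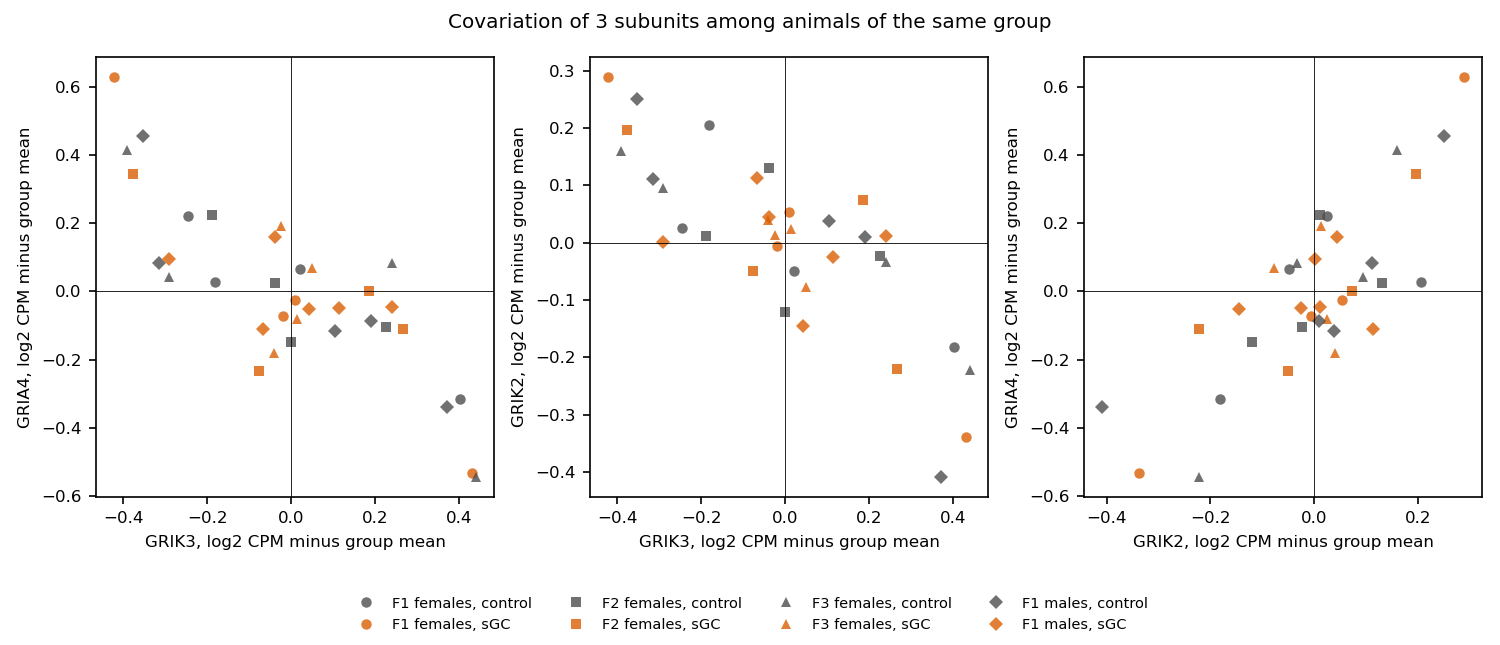
Log2(CPM + 1) of 3 subunits in each of the 35 animals after subtraction of its group mean, for GRIK3 with GRIA4, GRIK3 with GRIK2, and GRIK2 with GRIA4. Animals high in GRIK3 for their group were low in GRIA4 (r -0.81) and GRIK2 (r -0.79) (grey, control; orange, sGC; the symbol gives the table).

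The same subunits followed the marker sums of the punches. Coefficients were computed for every subunit with every marker list, and mostly the larger ones are named, as descriptions without a test. GRIK3 varied with the oligodendrocyte sum (r 0.86, rho 0.88, 0.77 to 0.97 within tables) and with the deep-layer sum (r 0.8). It varied against the upper-layer sum (r -0.8, -0.93 to -0.42 within tables). GRIA4 showed the reverse, with r 0.87 for upper layers, -0.86 for deep layers and -0.75 for oligodendrocytes, and GRIK2 had 0.77, -0.76 and -0.77. Within tables the upper-layer value of GRIK2 ran from 0.36 to 0.92. GRIA1 varied against the oligodendrocyte sum (r -0.8) and with the upper-layer sum (r 0.68), while GRIK4 followed the deep-layer sum (r 0.74). For GRIA3, GRIK1 and GRIK5 the coefficient largest in size was -0.54, of GRIK1 with the striatal sum, and GRIA2 reached -0.59 with oligodendrocytes. With the glutamatergic sum GRIA3 had r 0.3 and rho 0.46, and its r was positive in each table (0.26 to 0.9). Its r largest in size was -0.43, with the endothelial sum (-0.69 to 0.67 within tables). Between groups, the mean of GRIK3 was higher in sGC than in control animals in all 4 tables. In F1, F2 and F3 females and F1 males, the median log2 fold change of the oligodendrocyte markers was -0.73, 1.09, 0.35 and 0.99. It was 0.34, 0.58, 0.4 and 0.03 for the deep-layer markers and 0.3, -0.93, -0.3 and -0.84 for the upper-layer markers. For the glutamatergic markers it was 2.01, 0.1, 0.57 and -0.04, beside GRIA3 differences of 0.42, 0.06, 0.27 and -0.11. The part of these markers in the subunit differences was not tested.

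Of all 10725 genes tested in every table, those with the pattern most like each subunit over the 35 animals were named by the highest r. Values were centred within groups as above. A highest r picked from so many genes is raised by the choice itself, and none was tested. Spearman rho was lower for some pairs (0.75 for GRIK2 with TAC3) and higher for others (0.91 for GRIA1 with ASTN1). GRIK3 was matched most closely, by HS3ST5 (r 0.95) and LIPK (r 0.89). GRIA4 was closest to SLC24A4 (r 0.9) and VSTM2A (r 0.89), and GRIK2 to SLC24A4 (r 0.84) and TAC3 (r 0.84). GRIA1 was closest to ASTN1 (r 0.88) and PTPRT (r 0.87), GRIA2 to DENND5B (r 0.87) and SCN3A (r 0.84), and GRIA3 to GDAP1 (r 0.82) and NDRG3 (r 0.79). GRIK4 was closest to PPP2R1B (r 0.89) and PPFIA4 (r 0.83), GRIK5 to SYT5 (r 0.81) and ICAM5 (r 0.77), and GRIK1 to DEPTOR (r 0.75) and LRRC34 (r 0.74).

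Genes whose products bind, deliver or edit these receptors were examined beside them. In F1 females 4 of the 11 AMPA auxiliary subunits analysed rose and 1 fell, where 16.5% of all genes were called and 9.21% were called higher. FRRS1L, which takes part in AMPA receptor assembly, was 221 ± 19.3 CPM in controls and 320 ± 12.6 CPM in the sGC group (SD, n = 4 each; log2 fold change 0.53, FDR 0.00403). The TARPs CACNG7 (0.5, FDR 0.00431), CACNG5 (0.8, FDR 0.0263) and CACNG2 (0.18, FDR 0.0483) rose, and CACNG4 fell from 173 ± 40.8 to 93 ± 7.79 CPM (-0.89, FDR 0.0077). FRRS1L, CACNG7 and CACNG4 passed in all 8 fits that left out 1 animal, whereas CACNG5 passed in 3 and CACNG2 in 1 (without control 1). Of the 2 kainate auxiliary genes NETO2 fell (-0.29, FDR 0.0271) and NETO1 did not pass. Of 15 trafficking genes 4 rose, beside the same 9.21% of all genes: the neuronal pentraxins NPTX1 (1.23, FDR 0.0172) and NPTX2 (1, FDR 0.0306), which cluster AMPA receptors, the synaptic organizer C1QL3 (1.2, FDR 0.0194), and PORCN (0.23, FDR 0.0312). With 1 animal left out these 4 passed in 7, 2, 6 and 3 of 8 fits, and NETO2 in 3 of 8. Without controls 1 and 4 CACNG5 (0.76, FDR 0.0891), NETO2 (-0.18, FDR 0.121) and CACNG2 (0.21, FDR 0.081) did not pass, and the other 7 did. Without controls 2, 3 and 4 a single control remained, so the spread of controls could not be seen and only effect sizes are given. NPTX1, NPTX2 and C1QL3 then differed by 0.73, 0.42 and 0.63, FRRS1L by 0.37 and CACNG4 by -1.32.

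Fewer partner genes passed in the other tables, as did fewer genes in all: 0.278% in F2 females, 1.34% in F3 females and 9.22% in F1 males. In F2 females 0 of 27 auxiliary and trafficking genes passed, with CNIH3, an AMPA auxiliary subunit, closest at -0.71 (25.3 ± 2.43 and 15.5 ± 3.04 CPM, FDR 0.0506), and NETO1 at 0.4 (FDR 0.185), ARC at 0.51 (FDR 0.116) and CACNG7 at 0.29 (FDR 0.197). In F3 females NPTX2 rose from 47.4 ± 11.7 to 100 ± 13.6 CPM (1.08, FDR 0.0216) and CACNG4 fell from 133 ± 13.6 to 101 ± 6.73 CPM (-0.41, FDR 0.0485), and they passed in 4 and 1 of 8 fits that left out 1 animal. In F1 males C1QL3 fell from 216 ± 48.9 (SD, n = 5) to 128 ± 38.7 CPM (SD, n = 6; -0.76, FDR 0.021; passed in 7 of 11 such fits). Without controls 3 and 4, which had the lowest oligodendrocyte sums, C1QL3 differed by -0.5 (FDR 0.165) and did not pass. FRRS1L differed in F1 males by -0.27 (FDR 0.0525). Of the RNA-editing genes, ADAR fell in F1 males (-0.1, FDR 0.0481) and lost the call with the likelihood ratio test (FDR 0.0689) and without controls 3 and 4 (-0.09, FDR 0.2). ADARB1, the enzyme that edits GRIA2, did not pass in any table (0.39 in F1 females, FDR 0.0901, and 0.32 in F3 females, FDR 0.0765).

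The response of partner genes differed between F1 females and males for 13 of 29 genes tested, where 31.7% of all genes did, and between F1 and F2 females for 8 of 29, where 13.8% of all genes did. C1QL3 had the largest differences, -1.96 in males (FDR 0.000413) and -1.57 in F2 (FDR 0.00475). FRRS1L, like GRIA3, had a lower log2 fold change in F1 males (difference -0.8, FDR 0.000131) and in F2 females (-0.64, FDR 0.00475) than in F1 females. In F1 males the log2 fold changes of both FRRS1L and GRIA3 were negative, and neither passed. None of 29 differed between F1 and F3 females, where 0.0981% of all genes did, and none of 30 between F2 and F3 females, where 0.018% did. Of the 6 NMDA receptor subunits analysed, GRIN1 alone rose in F1 females (0.37, FDR 0.0427), where 16.5% of all genes were called. It passed in 2 of 8 fits that left out 1 animal and missed with upper-quartile scaling (FDR 0.0576). Without controls 1 and 4 GRIN1 differed by 0.54 (FDR 0.0149). With control 1 as the only control it differed by 0.08. No NMDA receptor subunit passed in the other tables, and GRIN2A was closest in F3 females (0.47, FDR 0.0665).

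**Figure D5:**
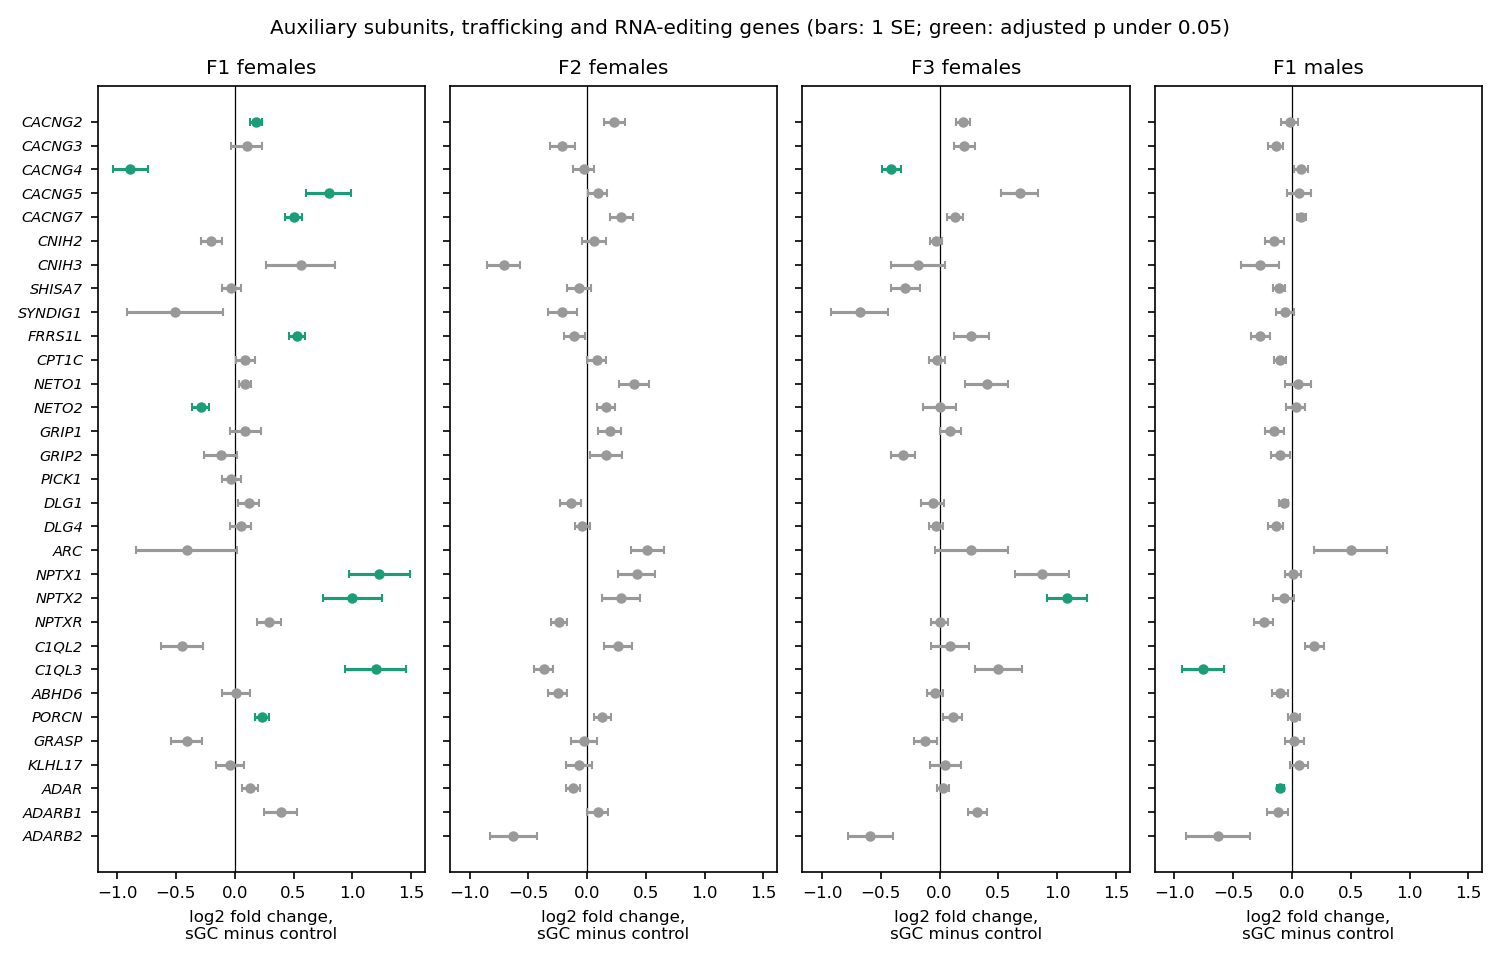
Log2 fold change (sGC minus control) of auxiliary subunits, trafficking and anchoring genes and RNA-editing genes in the 4 tables, with bars of 1 SE; green marks values past the FDR threshold of 0.05. FRRS1L and NPTX1 rose in F1 females, by 0.53 and 1.23, and no gene passed in F2 females.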

How the data were processed

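The authors deposited 4 tables of raw read counts per gene, 1 for each generation and sex; per the labels TopHat2 and edgeR were used, and the genome build, annotation and counter were not given in the sources used here. Libraries were made from poly(A)-enriched RNA without a statement on strand, so antisense reads could not be set apart. The members and lists were chosen with earlier results of these data known. In each table genes were kept by filterByExpr (minimum count 10, minimum total 15), scaled by TMM and tested with glmQLFit and glmQLFTest in edgeR 4.0.16 (R 4.3.3, limma 3.58.1), with Benjamini-Hochberg adjustment over all genes and a threshold of 0.05. Responses were compared between tables by an interaction over 4 group means. DESeq2 1.42.0, the likelihood ratio test, other scalings and filters, a replicate block and the omission of animals were alternatives. The scripts were tested on simulated data. Animals with the same replicate number did not deviate together (correlations from -0.33 to 0.37), so numbers were not taken to pair them, and no libraries were identical. Named were all 9 members, listed genes that passed in a table, the 2 with the largest difference in lists where none did, where shown, and the 2 genes most like each member; 1 list is not reported here. Transcript lengths were not used here, so levels are not compared between genes.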

Additional observations from a re-analysis of the deposited data

Results flagged for a closer look

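In 72 sets of member values by group, 2 had an animal far from the others by Dixon's criterion, which chance alone gives in about 1 in 20 groups. F1 male control 3 had 439 CPM of GRIA2, where the other controls had 366 to 384 CPM, and F2 sGC 1 had 177 CPM of GRIA3, where the other sGC animals had 153 to 157 CPM.

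Responses that differed between tables, by the interaction term of edgeR's quasi-likelihood test with Benjamini-Hochberg adjustment, are given as the second table minus the first. Between F1 females and F1 males the difference was -0.53 for GRIA3 and -0.35 for GRIA2, and between F1 and F2 females it was -0.36 for GRIA3. Among partner genes, the differences from F1 females to F1 males were -1.96 for C1QL3, -1.22 for NPTX1, -1.08 for NPTX2, -0.8 for FRRS1L, -0.75 for CACNG5, -0.54 for NPTXR, -0.52 for ADARB1, -0.42 for CACNG7, -0.24 for ADAR and -0.22 for PORCN, and 0.97 for CACNG4, 0.63 for C1QL2 and 0.42 for GRASP. From F1 to F2 females they were -1.57 for C1QL3, -1.27 for CNIH3, -0.72 for CACNG5, -0.64 for FRRS1L and -0.53 for NPTXR, and 0.86 for CACNG4, 0.7 for C1QL2 and 0.44 for NETO2. Of these 21 partner differences, 52 of 375 values with 1 animal left out no longer passed. Between F1 and F2 females C1QL2 passed in 3 of 16 such fits and CACNG5 in 4 of 16. Between F1 females and males GRASP and PORCN passed in 8 of 19 each, and PORCN missed with the likelihood ratio test (FDR 0.0556). All of these pairs include the F1 female table, in which control and sGC animals also differed in glutamatergic and striatal marker sums. The part of those animals in the differences was not tested beyond leaving out 1 animal at a time.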

How the results depend on the processing

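Of 32 fold changes of members that were not called, 7 of the 277 values with 1 animal left out and none of the 256 under other planned settings turned their sign. In F1 females 2 members passed in a single fit of all 4 tables (GRIA3 and GRIK4), where 3327 of 10948 genes were called. Without controls 1 and 4, 1 member passed, where 1707 of 11338 genes were called. Without controls 2, 3 and 4 a single control remained, and GRIA3 differed by 0.33. In F2 females 3 passed with the likelihood ratio test and 3 with DESeq2, tests that called 534 and 473 genes in all against 31. In F3 females the single fit called GRIA3 (0.28, FDR 0.0191) in place of GRIA1 (-0.36, FDR 0.0587). With the replicate block 0 passed there, where 67 of 11420 genes did, and GRIA1 had an FDR of 0.0901. The block changed the count of called members in no other table or pair. In F1 males 1 passed in the single fit (GRIA2), where 766 of 10948 genes did, and 0 without controls 3 and 4, where 264 of 11587 did. The settings without these controls were added after the data were seen. With 1 animal left out, called members ranged from 1 to 1 in F1 females, 0 to 3 in F2 females, 0 to 3 in F3 females and 0 to 4 in F1 males. F3 calls came to 3 without control 1, and F1 male calls to 4 without control 1 and 0 without sGC 4. The shares of all genes called in these fits are not given here, so the counts show no gain particular to the subunits. Members that differed in response ranged from 1 to 2 between F1 females and males, were 1 in each fit for F1 and F2 females, and 0 in each fit for the other pairs. Values that turned sign were, in F1 females, GRIA1 (0.23) and GRIA4 (0.06) without controls 1 and 4, and GRIA2 (-0.04) and GRIK5 (-0.14) without controls 2, 3 and 4; in F1 males GRIK5 (0.01) without controls 3 and 4. With 1 animal left out, GRIA1 ranged from -0.18 to 0.11 and GRIA4 from -0.35 to 0.06 in F1 females, and GRIK4 from -0.06 to 0.05 and GRIK5 from -0.06 to 0 in F1 males. The cause of these changes was not tested. Of 15 calls of partner genes, 62 of 126 values with 1 animal left out no longer passed, with the same sign. With 4 animals a group, GRIK1 (119 reads at the lowest) had SE from 0.17 to 0.28.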
